A study of Rattus norvegicus with 17 samples.

Results

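Potassium channel genes were examined in the hippocampus of adolescent rats whose dams had taken different diets in pregnancy. A gene was counted as a potassium channel gene when its symbol began with Kcn and a family letter (Kcna to Kcnv, with the auxiliary families) and when it had at least 1 count in 1 of the samples. The symbols of 94 genes matched, and 91 of them had at least 1 count, of 34322 genes in the count table and 23963 with at least 1 count. Kcna10, Kcne1 and Kcnu1 matched by symbol but did not reach 1 count in any sample.

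The animals were Long-Evans rats of 36 to 38 days of age, and RNA of 1 hippocampus per rat was sequenced. ET rats (n = 5, 2 females and 3 males) came from a dam given a liquid diet with 6.7% ethanol from gestational day 0 to 20. PF rats (n = 6, 3 of each sex by their labels) came from a dam pair-fed the liquid diet without ethanol, and AD rats (n = 6, 3 of each sex by their labels) came from a dam with chow ad libitum. From gestational day 20 on, dams of every group ate ordinary rodent chow. Each group came from 1 litter, so litter and diet cannot be told apart, and the p-values below measure the spread between littermates. The right hippocampus was used for 4 samples (ET replicate 2, PF replicates 1 and 6 and AD replicate 3) and the left for the others. Since ET replicate 2 was left out of the fits, these held only left ET samples. The side was not taken up in the fits. The deposited values are fragments counted per gene, averaged over 3 technical replicates, and they were scaled here to normalized counts (counts divided by the TMM-scaled library size of the sample and multiplied by the mean of these sizes). The total per sample ran from 10853947 to 17498392 fragments (median 13538433).

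Potassium channels let potassium leave or enter cells and so set the resting potential of neurons, end their action potentials and limit repetitive firing. Voltage-gated (Kv) channels open on depolarization, inward rectifiers and K2P channels (subunits with a pair of pore domains) carry current near rest, and calcium- or sodium-activated channels follow activity. In the hippocampus, pyramidal and granule neurons, astrocytes, pericytes and the neighbouring choroid plexus each express their own set of these genes, and auxiliary subunits decide where many of the channels go and how fast they close.

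Some libraries stood apart and bear on the values below. The study left ET replicate 2, PF animal 11f6 and AD replicate 4 out of its final set, and the fits here use the other 14 libraries (4 ET, 5 PF and 5 AD), with all 17 shown as levels. Of the 12 marker genes of hippocampal neurons all were in the table, and their summed level was 86586.0 to 134595.7 normalized counts. That of the thalamus and habenula markers (9 of 10 in the table) was 1610.6 to 3064.9 in ET, 1212.1 to 2736.9 in PF and 1492.3 to 1898.5 in AD. In ET against PF, 7 of these were tested and had log2 fold changes of 0.09 to 1.04 (median 0.51), with 3 at an unadjusted p below 0.05 and 0 after adjustment by edgeR. In PF against AD, their median was -0.24. Their part in the differences below was not tested. The sum of the 10 choroid plexus markers was 100798.5, 115688.3 and 128027.9 in the 3 libraries left out and 101.5 to 16574.8 in the other 14, with the highest values of those in ET replicate 1 (15288.6) and PF replicate 2 (16574.8). The sum of the 10 pineal markers was 14848.4 in AD replicate 6 and 15.2 to 125 in the other 16 libraries. Y-linked genes matched the label of sex in 15 libraries and went against it in 2 of the AD group, so the sexes were compared in ET and PF only.

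Of the 91 potassium channel genes, 78 had a mean of 20 or more normalized counts over the 17 libraries, and 13 had less. Kcnk18, Kcnmb3 and Kcnj1 stayed at or under 3 counts in every library, the floor used here for detection. The 91 genes together took 0.569% to 0.659% of the counted fragments in ET, 0.579% to 0.640% in PF and 0.597% to 0.642% in AD, so the ranges of the 3 groups overlapped. Exon lengths were not used here, so the counts of different genes are not compared as levels of expression. They are given as counts, which also grow with the length of a transcript.

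The 16 genes of pore-forming Kv subunits of the Kcna, Kcnb, Kcnc and Kcnd families took 27.0% to 30.7% of the fragments of all 91 genes. Kcna1 and Kcna2, delayed rectifier subunits of axons, had means of 4341.9 and 4038.9 normalized counts. Kcna4, of an A-type channel of axons, had 569.3. Kcnd2, which carries the dendritic A-type current, had 2176.0. Kcna7 had the lowest mean in the class, 2.74. Over the 17 libraries, Kcna1 ranged from 3612.9 to 5502.2, a ratio of 1.52.

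The 10 silent Kv subunits (Kcnf, Kcng, Kcns and Kcnv families), which form no channel alone and modify Kcnb channels, took 4.34% to 5.68% of the fragments. Kcng1 had the largest mean in the class, 1070.6 normalized counts, Kcns2 had 820.3, and Kcnv2 had the smallest, 1.51. The 8 Kcnh genes took 4.78% to 7.93%, with Kcnh7 largest at 1487.4 and Kcnh8 smallest at 26.7. Kcnq3 and Kcnq5 code for subunits of the M-channel that acetylcholine closes, and had means of 1357.2 and 2171.5 normalized counts, while Kcnq1 had 18.5. The 5 Kcnq genes together took 10.49% to 16.4% of the fragments.

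Among the 15 inward rectifiers, Kcnj10, the potassium-buffering channel of astrocytes, had the largest mean, 4126.9 normalized counts, with a narrow range of 3480.9 to 4864.0. Kcnj3, Kcnj6 and Kcnj9, whose proteins form the channels that G proteins open, had means of 813.2, 3603.9 and 477.0. Kcnj11, the pore of the neuronal ATP-sensitive channel, had 471.7, and Kcnj8, the pore of the same channel type in pericytes, had 78.1 with a range of 55.9 to 100.1. The summed level of the 10 endothelial and pericyte markers ranged from 4912.6 to 6636.0 over all libraries, and neither it nor Kcnj8 separated the groups.

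Of the 14 K2P genes, Kcnk1 had the largest mean, 831.5 normalized counts, and Kcnk18 the smallest, 0.767. Kcnk2, an arachidonic acid- and stretch-sensitive channel, had 472.6. Kcnk9 and Kcnk3, of acid-sensitive leak channels, had 292.0 and 130.9, and Kcnk13 had 36.5. The calcium-activated small-conductance genes Kcnn1, Kcnn2 and Kcnn3 had 223.7, 533.2 and 283.8, and Kcnn4 had 4.58. Kcnma1, the pore of the large-conductance calcium-activated channel, had 949.6, its neuronal auxiliary subunit Kcnmb4 had 714.5, and the sodium-activated Kcnt1 had 351.9.

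The 16 auxiliary subunit genes took 23.6% to 27.9% of the fragments, and Kcnab2, a beta subunit of Kcna channels, had the largest mean of all 91 genes, 12145.7 normalized counts. The Kcnip genes code for calcium-binding proteins that bring Kcnd channels to the membrane and slow their inactivation. Kcnip1 to Kcnip4 had means of 333.9, 2633.8, 1218.5 and 945.2.

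The first comparison asked how potassium channel genes differed between rats exposed to ethanol before birth and pair-fed controls. Kcnk15, of the K2P family (TASK-5, a subunit with no known current when expressed alone), was lower in ET, and the other 80 genes tested did not pass. Of 81 potassium channel genes with enough counts, 1 passed an adjusted p-value of 0.01 with an absolute log2 fold change above 1.5 by edgeR's quasi-likelihood test with Benjamini-Hochberg adjustment over 16068 genes. The share of all genes called by the same rule was 2.17% (2.13% lower and 0.0373% higher in ET). At an adjusted p below 0.05 the same gene passed, with 4.13% of all genes called (3.59% lower and 0.541% higher). At an unadjusted p below 0.05 there were 4 genes, 2 lower and 2 higher, or 4.94% of the 81 beside 11.9% of all genes (7.21% lower and 4.72% higher). Without ET replicate 3 there were 5 lower and 4 higher of 81, beside 8.26% and 6.1% of all genes in the same fit. The median log2 fold change of ET over PF was 0.03 over the 81 genes and 0.01 over all genes. The share of genes within 0.5 of zero was 97.5% of the 81 and 93.1% of all.

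Kcnk15 had 5.04, 1.61, 1.22, 0.640 and 2.59 normalized counts in ET replicates 1 to 5. In the 6 PF libraries it had from 20.97 to 43.3, with a median of 33.4. In the 6 AD libraries it had from 0 to 3.87, with a median of 1.22. Every PF library was above every ET and AD library, also among the 3 libraries left out of the fits. As deposited, these are 20 to 43.7 counts in PF libraries, 0.67 to 5 in ET and 0 to 3.33 in AD, so the values of ET and AD lie at or near the floor. In the libraries of the fits, the mean was 2.37 ± 1.96 (SD, n = 4) in ET and 33.1 ± 8.07 (SD, n = 5) in PF. ET was thus at -3.71 against PF on the log2 scale (SE 0.38, edgeR adjusted p = 8.9e-05). Kcnk15 had enough counts to be tested through the PF libraries alone, and the fold change sets them against values near the floor.

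Kcnk15 overlaps Rims4, a gene of a synaptic active zone protein, in the RefSeq gene list of the rat assembly GRCr8. Rims4 did not follow the groups, with 987.7 to 1854.4 normalized counts in ET, 1064.3 to 1677.4 in PF and 1161.5 to 1948.9 in AD. Within PF, Kcnk15 amounted to 1.97% to 2.91% of the Rims4 count in every library, against 0.0620% to 0.272% in ET and 0% to 0.199% in AD. Gdf1 and Cers1, which share their whole span in that list and were looked up after their values were seen, had 0 counts in all 5 ET and all 6 AD libraries. In each of the 6 PF libraries both had the same count, from 150.7 to 226.0. Of 7436 genes that overlap another gene, 242 (3.25%) were higher in all PF libraries than in all others by a log2 fold change above 1.5, and of 8884 genes that overlap none, 27 (0.304%) were. Fragments of Kcnk15 and of Rims4 cannot be told apart in a table of counts per gene, and diet and a difference between groups in the counting of overlapping genes cannot be told apart, since all PF libraries share both. Among the 42 tested potassium channel genes that overlap no other gene, 0 passed an adjusted p of 0.05 between ET and PF by edgeR or by DESeq2, and 2 (Kcnh1 and Kcna6) had an unadjusted p below 0.05 by edgeR. Among all 7982 tested genes that overlap no other gene in that list, 1.32% passed the adjusted p of 0.05 and 8.38% had an unadjusted p below 0.05 by edgeR.

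**Figure D1:**
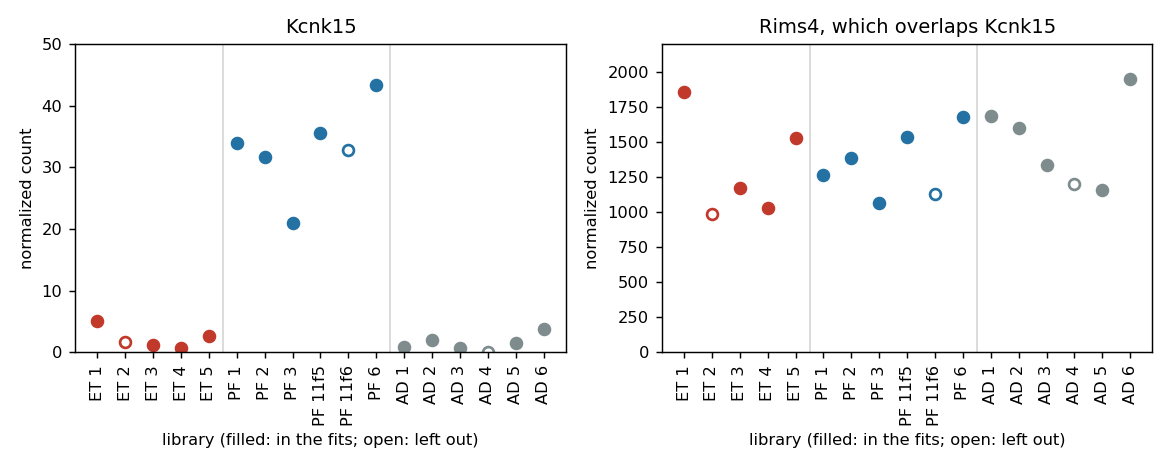
Normalized counts of Kcnk15 (left) and of the overlapping gene Rims4 (right) in each of the 17 libraries, red for ET, blue for PF and grey for AD, with open circles for the 3 libraries left out of the fits. Kcnk15 lies between 20.97 and 43.3 in the 6 PF libraries and at or below 5.04 in the others, while the Rims4 ranges of the 3 groups overlap.

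Of the other genes, Kcnip1, Kcnh1 and Kcna6 had an unadjusted p below 0.05 between ET and PF and did not pass after adjustment. Kcnip1, whose protein is found mostly in interneurons, had 299.9 ± 56.6 normalized counts in ET and 382.3 ± 22.2 in PF, and the log2 fold change was -0.35 (SE 0.11, edgeR adjusted p = 0.18). In ET replicates 1 to 5 it had 381.0, 262.1, 253.5, 270.4 and 294.9, and in PF from 335.9 to 411.4. Only ET replicate 1 lay within the PF range. Without that library, the log2 fold change was -0.48 and the adjusted p was 0.0034, so the call for Kcnip1 turned on ET replicate 1. Kcnip1 overlaps Kcnmb1, of a smooth muscle subunit, which had 12.5 to 32.3 normalized counts in ET and 10.8 to 29.5 in PF.

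Kcnh1, of a voltage-gated channel of the EAG group, had 1272.9 ± 109.7 normalized counts in ET and 1028.4 ± 146.0 in PF, and the log2 fold change was 0.31 (SE 0.10, edgeR adjusted p = 0.19). Its values were 1385.3, 1035.3, 1346.3, 1200.0 and 1160.0 in ET and 895.1 to 1226.3 in PF, and the groups overlapped. Kcna6, of a dendrotoxin-sensitive Kv channel, had 2170.6 ± 322.6 in ET and 1803.0 ± 163.9 in PF, and the log2 fold change was 0.27 (SE 0.10, edgeR adjusted p = 0.31). Outside Kcnk15, the fold changes of the 81 genes lay between -0.36 for Kcnh8 and 0.69 for Kcns1. Both ends depended on ET replicate 1, without which the values were -0.09 for Kcnh8 and 0.04 for Kcns1.

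The second comparison set rats exposed to ethanol against the chow-fed controls. Of 80 potassium channel genes tested, 0 passed either threshold by edgeR, and 0 passed by DESeq2. Kcnk15 had too few counts in both groups to be among the 80 tested by edgeR. The share of all 15749 genes called was 0.0127% at each threshold. At an unadjusted p below 0.05 there was 1 gene, 1.25% of the 80 beside 2.74% of all genes (1.59% of all higher in ET and 1.15% lower). The gene was Kcnip4, a Kcnd auxiliary subunit, with 1033.9 ± 91.6 normalized counts in ET and 911.4 ± 65.8 in AD, and the log2 fold change was 0.18 (SE 0.07, edgeR adjusted p = 1). Without ET replicate 1 there were 6 lower and 0 higher of 80 at an unadjusted p below 0.05, beside 2.34% and 2.6% of all genes in the same fit, and 0 passed after adjustment by edgeR. The median log2 fold change of ET over AD was -0.03 over the 80 genes and 0.0028 over all genes, and 96.2% of the 80 and 98.0% of all genes lay within 0.5 of zero. The SE of the log2 fold change had a median of 0.16 over these genes. The ends of the range were -1.52 for Kcnh6 and 1.40 for Kcnj13. Without AD replicate 6 the value of Kcnh6 was 0.13, and without ET replicate 1 that of Kcnj13 was 0.39. The 9 choroid plexus markers tested here had a median log2 fold change of 1.25 (-1.40 to 2.72), with 4 at an unadjusted p below 0.05 and 0 after adjustment by edgeR, and their part in the value of Kcnj13 was not tested.

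The third comparison set the pair-fed against the chow-fed controls. The PF dam got liquid diet without ethanol in an amount matched to an ET dam, and the AD dam ate chow freely. The kind of diet, its amount and the litter cannot be told apart here. Kcnk15 was again the gene that passed, with 33.1 ± 8.07 normalized counts in PF and 1.81 ± 1.27 in AD (n = 5 each), a log2 fold change of PF over AD of 4.13 (SE 0.31, adjusted p = 2e-06 by edgeR). The 2 comparisons with PF share its libraries, and the limits given for Kcnk15 above hold here too. These are its overlap with Rims4, its values near the floor outside PF, and its being tested through the PF libraries alone. Of 79 genes tested, 1 passed the adjusted p of 0.01 with a log2 fold change above 1.5, beside 2.05% of all 15960 genes (2.02% higher and 0.0251% lower in PF). The count was also 1 at an adjusted p below 0.05, beside 5.17% of all genes (0.846% lower and 4.32% higher). At an unadjusted p below 0.05 there were 13 genes, 7 lower and 6 higher in PF, or 16.5% of the 79 beside 16.4% of all genes (6.77% lower and 9.66% higher). Without AD replicate 1 there were 3 lower and 4 higher, beside 5.37% and 8.75% of all genes in the same fit. Without PF replicate 1 there were 3 lower and 5 higher, beside 6.06% and 8.98%. Without PF replicate 6 there were 12 lower and 6 higher, beside 8.96% and 11.4%. Without AD replicate 3, 5 or 6, in this order, 9, 10 and 9 were lower, beside 6.54%, 6.66% and 5.69%. In the same fits 4, 6 and 5 were higher, beside 9.3%, 9.31% and 9.96%. The median log2 fold change was -0.07 over the 79 genes and -0.0029 over all genes. It was -0.12 over the 42 genes that overlap no other gene and -0.0016 over the 37 that do.

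Kcnn1, Kcnk10 and Kcnh2 had the smallest adjusted p-values after Kcnk15 and did not pass. Among the 17 alternative fits, Kcnn1 had an adjusted p below 0.05 in 5, Kcnk10 in 3 and Kcnh2 in 2. Kcnn3 and Kcnip1 did in 1 each. Kcnn1, of a small-conductance calcium-activated channel, had 202.6 ± 13.8 normalized counts in PF and 251.1 ± 29.0 in AD, with -0.31 as the log2 fold change (SE 0.08, adjusted p = 0.061 by edgeR). All 6 PF libraries (182.0 to 218.4) were below all 6 AD libraries (218.5 to 279.7), by a narrow margin. Kcnk10, a mechanosensitive K2P channel, had 155.2 ± 19.1 in PF and 117.0 ± 17.5 in AD, its log2 fold change being 0.41 (SE 0.11, adjusted p = 0.069 by edgeR). Its groups overlapped, with 128.9 to 175.4 in PF and 95.7 to 152.9 in AD.

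Kcnh2, which codes for the ERG channel, had 326.7 ± 19.6 normalized counts in PF and 381.4 ± 31.2 in AD (log2 fold change -0.22, SE 0.07, adjusted p = 0.085 by edgeR), with 311.7 to 358.6 in PF and 342.7 to 425.8 in AD. Kcnn3 went the other way from Kcnn1, with 316.3 ± 48.7 in PF and 251.6 ± 27.4 in AD, and the log2 fold change was 0.33 (SE 0.11, edgeR adjusted p = 0.14). Kcne5, of an auxiliary subunit of the Kcne family, had 24.6 ± 4.10 in PF and 35.0 ± 5.65 in AD, and the log2 fold change was -0.51 (SE 0.16, edgeR adjusted p = 0.1). Kcnip1 had 382.3 ± 22.2 in PF and 332.8 ± 26.4 in AD, and the log2 fold change was 0.20 (SE 0.06, edgeR adjusted p = 0.12). The remaining genes at an unadjusted p below 0.05 were Kcnc1, Kcnj2, Kcnh1 and Kcnab3, with log2 fold changes of -0.15, -0.23, -0.24 and -0.27 and adjusted p of 0.22, 0.24, 0.26 and 0.3, and Kcnd3 and Kcnj13, at 0.13 and 1.44 with adjusted p of 0.27 and 0.22 by edgeR. Kcnj13, of an epithelial inward rectifier, had 0.65 in place of 1.44 without PF replicate 2, and from 0.08 to 1.71 over the 17 alternative fits. The 10 choroid plexus markers had a median log2 fold change of 1.12 in PF over AD (-2.03 to 2.68), with 4 at an unadjusted p below 0.05 and 0 after adjustment by edgeR, and their part in it was not tested. All 6 genes higher in PF at an unadjusted p below 0.05 (Kcnk15, Kcnk10, Kcnn3, Kcnip1, Kcnd3 and Kcnj13) overlap another gene. So do 2 of the 7 lower ones (Kcnn1 and Kcnc1), beside 37 of the 79 tested potassium channel genes. Of all tested genes that overlap another, 12.8% were higher in PF and 5.95% lower at an unadjusted p below 0.05 by edgeR. Of all tested genes that overlap none, 5.59% were higher and 7.94% lower. The part of the counting of overlapping genes in these differences was not tested.

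**Figure D2:**
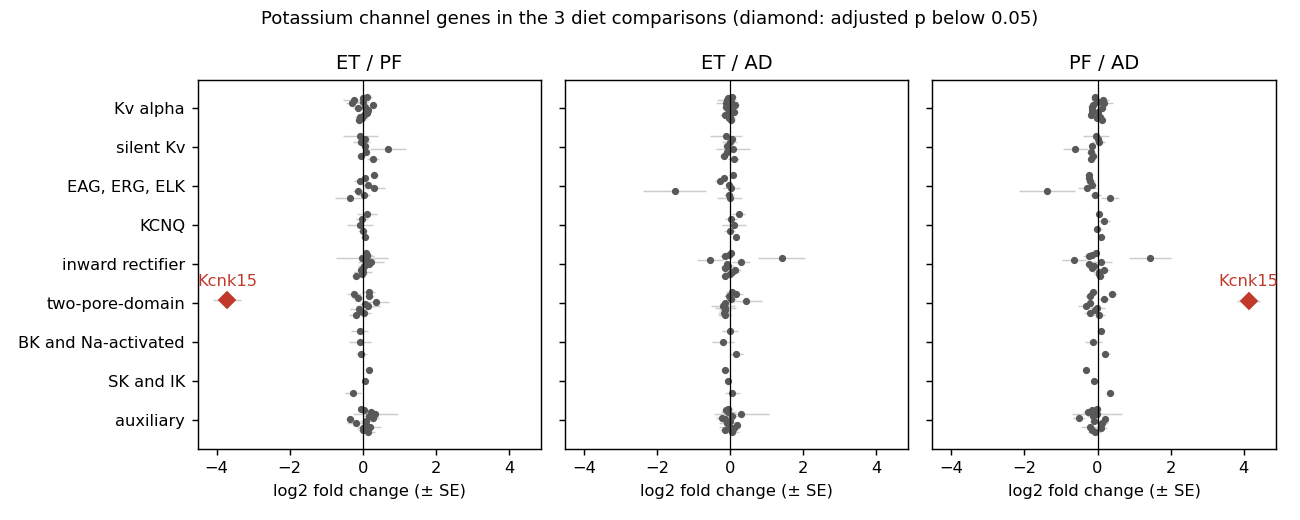
Log2 fold change of each tested potassium channel gene (points, with SE as bars) in the 3 diet comparisons, grouped by class, with diamonds for genes with an adjusted p below 0.05 by edgeR. Kcnk15 is at -3.71 in ET over PF and at 4.13 in PF over AD, and the other points far from 0 are Kcnh6 and Kcnj13 in the comparisons with AD.

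By class, the median log2 fold change of ET over PF lay between -0.07 (the Kcnma1 and Kcnt genes, 3 tested) and 0.08 (auxiliary subunits, 14 tested). Over the 15 Kv genes of the Kcna to Kcnd families it was 0.01, with single genes from -0.29 to 0.27. Over the 13 inward rectifiers tested it was 0.03, with single genes from -0.20 to 0.22. In PF over AD, the class medians ran from -0.21 for the 8 Kcnh genes and -0.13 for the 8 silent Kv genes to 0.08 for the 4 tested Kcnq genes and 0.09 for the Kcnma1 and Kcnt genes. The median SE over all tested potassium channel genes was 0.15 in ET against PF and 0.12 in PF against AD.

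Genes whose proteins bind or anchor potassium channels (30, among them Dpp6, Dpp10, Lgi1, Cntnap2, Ank3 and Dlg4) were examined as a list. In ET against PF, 1 of the 28 tested was higher, 0 were lower at an adjusted p below 0.05 by edgeR, and 3 had an unadjusted p below 0.05. Of all genes, 0.541% were higher, 3.59% lower and 11.9% at an unadjusted p below 0.05. The gene was Lrrc55, an auxiliary subunit of the Kcnma1 channel, its log2 fold change being 0.37 (SE 0.08, adjusted p = 0.027 by edgeR). In PF against AD it was lower, at -0.28 (SE 0.07, adjusted p = 0.042 by edgeR), with 1 of 28 lower, 0 higher and 2 at an unadjusted p below 0.05, beside 0.846% of all genes lower, 4.32% higher and 16.4% at an unadjusted p below 0.05. In ET against AD 0 of 28 passed and 0 had an unadjusted p below 0.05, beside 0.0127% and 2.74% of all genes. Kcnma1 itself had 949.2 ± 358.6 normalized counts in ET, 1010.1 ± 155.1 in PF and 948.8 ± 80.7 in AD.

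Between males and females of ET and PF, with diet as a covariate (4 males and 5 females in the fit), 0 of 81 potassium channel genes passed either threshold by edgeR, and 0 passed by DESeq2. Of all 16068 genes, 0.0311% passed the adjusted p of 0.01 with the fold threshold (0.00622% lower and 0.0249% higher in males), and 0.0436% passed the adjusted p of 0.05 (0.0124% lower). At an unadjusted p below 0.05 there was 1 gene, 1.23% of the 81 beside 1.87% of all genes (0.996% lower and 0.878% higher). The gene was Kcnj16, of an inward rectifier that pairs with Kcnj10, with 104.3 ± 26.2 normalized counts in males and 165.6 ± 69.9 in females, and the log2 fold change was -0.72 (SE 0.30, edgeR adjusted p = 1). By DESeq2 2 of 90 had an unadjusted p below 0.05, beside 0.926% of all genes. Without ET replicate 1 there were 7 lower and 11 higher of 81 at an unadjusted p below 0.05, beside 4.32% and 4.82% of all genes in the same fit, and 0 passed after adjustment by edgeR. The test of whether the ET to PF difference itself varied with sex called 0 of 83 genes at an adjusted p below 0.05, beside 0% of all 16484 genes, and 0 by DESeq2. At an unadjusted p below 0.05 there were 2 (0.588% of all genes lower and 0.813% higher), Kcnk6 (0.80, SE 0.34) and Kcnh5 (-1.15, SE 0.49; males minus females), both with adjusted p = 1 by edgeR.

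The spread over the libraries, groups pooled, differed between genes. Among the 78 genes with a mean of 20 or more normalized counts, the ratio of the highest to the lowest of the 17 libraries had a median of 1.83, against 1.49 over all 14620 such genes. It was below 2 for 48 genes (61.5%, against 79.4% of all) and above 5 for 6 genes (7.69%, against 3.69%). Those 6 were Kcnj13 (122.6), Kcne2 (54.8), Kcnh6 (13.2), Kcnh8 (7.05), Kcns1 (5.70) and Kcnf1 (5.19). Among the most even were Kcnn2 (1.28), Kcnh2 (1.37) and Kcnj10 (1.40).

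Kcnj13 and Kcne2 are genes of the apical potassium channels of the choroid plexus: Kcnj13 codes for the Kir7.1 pore, and Kcne2 for a subunit that assembles with Kcnq1. Kcnj13 had 128.8, 865.3, 15.5, 19.5 and 40.4 normalized counts in ET replicates 1 to 5. In PF it had from 16.4 to 960.1 with a median of 37.2, and in AD from 8.62 to 1056.7 with a median of 22.2. The highest value of each group belonged to the library left out of the fits, and ET replicate 1 and PF replicate 2 (138.2) came next.

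Kcne2 had 144.2, 608.5, 27.96, 30.1 and 37.8 normalized counts in ET, 26.1 to 787.5 in PF with a median of 33.3, and 14.7 to 804.6 in AD with a median of 29.1. Kcnq1 had 10.1, 57.3, 11.2, 10.2 and 11.6 in ET, 7.19 to 61.5 in PF with a median of 8.88, and 6.28 to 56.6 in AD with a median of 9.61. The same 3 libraries were highest in all of these genes. Ttr, which codes for the main secreted protein of the choroid plexus, had 87656.1, 100861.6 and 112976.3 normalized counts in them, 13757.1 in ET replicate 1, 14509.7 in PF replicate 2 and 36.1 to 2529.5 in the other 12. All 10 choroid plexus markers had their highest value in 1 of these 3 libraries. The part of choroid plexus tissue in these values was not tested, and more cells of a type and more RNA per cell cannot be told apart in tissue RNA.

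Of the 78 potassium channel genes, 2 were higher in the 3 left-out libraries than in all the other 14 (3.94% of all 14620 genes with such a mean were), and 1 was lower (0.636% of all). The higher ones were Kcnj13 and Kcne2, and the lower one was Kcnh4, a neuronal ELK channel gene. The margin of Kcnh4 was narrow, with 60.0 to 63.0 normalized counts in the left-out libraries and 63.4 in PF replicate 1, the lowest of the others. Kcnq1, with a mean under 20, was not in that count but separated the same libraries. Kcnj16, another inward rectifier gene, had 136.9, 237.6 and 194.7 normalized counts in the 3 left-out libraries of ET, PF and AD, the highest of its group in AD alone, and 85.6 to 257.8 in the other 14.

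Kcne2 parted from Kcnj13 and Kcnq1 in AD replicate 6, the library with the pineal markers. There it had 157.6 normalized counts, with 27.1 for Kcnj13, 919.5 for Ttr and 8.91 for Kcnq1. The listed choroid plexus markers Otx2, Slc4a5 and F5 were also high in that library, at 326.1, 256.4 and 182.8, against 0.638 to 27.3, 6.06 to 64.3 and 11.7 to 76.2 in the other AD libraries of the fits. The other 7 markers of that list lay within the range of those libraries. Kcnh6, of an ERG-type channel, had 426.8 in that library and 32.3 to 51.9 in the other 16. Kcnj14, of a Kir2-type inward rectifier, had 460.9 there and 123.9 to 175.5 in the others. Both values lay beyond the range of every group, and 10 of 10 pineal markers also had their highest value in this library, with 359.0 normalized counts for Asmt (8.21 to 16.6 in the others) and 203.7 for Crx (0 to 2.67). Asmt codes for the last enzyme of melatonin synthesis, and Crx for a transcription factor of pinealocytes and photoreceptors. The part of pineal tissue in these values was not tested. With this library, the AD mean of Kcnh6 was 113.6 ± 175.1 (SD, n = 5), against 38.3 ± 5.26 in ET and 41.7 ± 5.74 in PF.

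**Figure D3:**
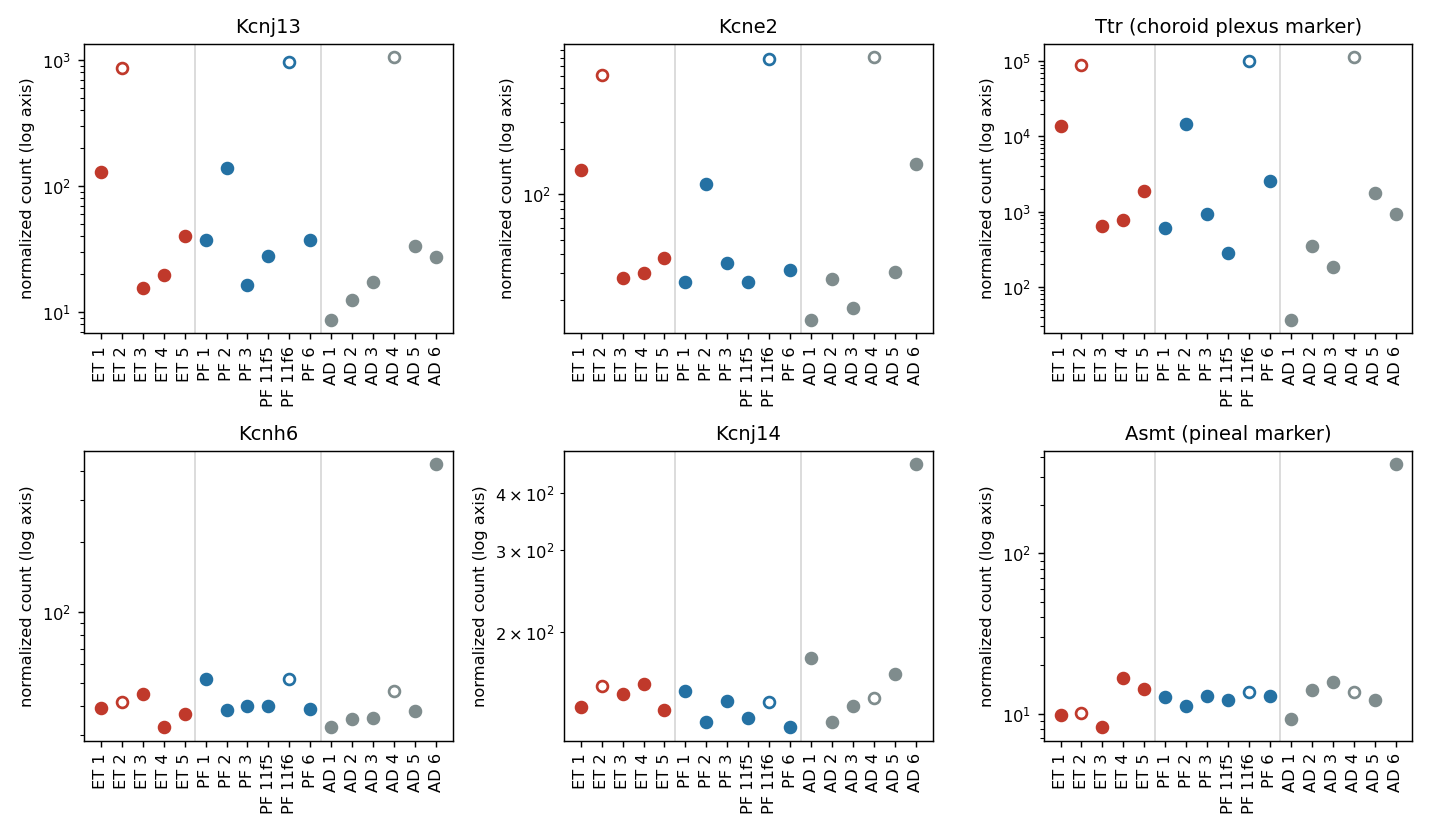
Normalized counts, on log axes, of Kcnj13, Kcne2 and the choroid plexus marker Ttr (top) and of Kcnh6, Kcnj14 and the pineal marker Asmt (bottom) in each library, red for ET, blue for PF and grey for AD, open for the libraries left out of the fits. Kcnj13 and Kcne2 are highest in the 3 open circles, where Ttr is 87656.1 or more, and Kcnh6 and Kcnj14 are highest in AD replicate 6, at 426.8 and 460.9, where Asmt is 359.0.

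The promoters of Kcnj13, Kcnh6 and Kcnj14 are shown because these genes led the libraries that stood apart. They are from RefSeq on GRCr8, which is not the authors' assembly, and hold 250 bases before and 50 bases after the start of the gene, read 5′ to 3′ on the strand of the gene. Of the 91 genes, 61 matched an entry in the promoter table. The capitals mark the letters TATAAA (the TATA box), CCAAT (the CCAAT box) and GGGCGG (the GC box), each searched on both strands. The Kcnj13 promoter is at chr9:95518937-95519236 on the minus strand, the Kcnh6 promoter at chr10:91449401-91449700 on the plus strand and the Kcnj14 promoter at chr1:105437209-105437508 on the minus strand.
Kcnj13: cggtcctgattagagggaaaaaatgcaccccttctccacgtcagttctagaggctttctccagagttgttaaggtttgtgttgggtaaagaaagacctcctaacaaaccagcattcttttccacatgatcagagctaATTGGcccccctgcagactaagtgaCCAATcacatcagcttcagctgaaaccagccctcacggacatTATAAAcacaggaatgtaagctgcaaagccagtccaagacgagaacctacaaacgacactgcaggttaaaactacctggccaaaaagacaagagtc
Kcnh6: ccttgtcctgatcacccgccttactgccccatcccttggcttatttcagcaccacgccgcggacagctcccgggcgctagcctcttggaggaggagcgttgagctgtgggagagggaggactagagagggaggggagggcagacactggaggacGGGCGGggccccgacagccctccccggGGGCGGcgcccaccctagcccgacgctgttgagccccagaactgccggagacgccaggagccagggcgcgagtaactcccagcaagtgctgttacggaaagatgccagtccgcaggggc
Kcnj14: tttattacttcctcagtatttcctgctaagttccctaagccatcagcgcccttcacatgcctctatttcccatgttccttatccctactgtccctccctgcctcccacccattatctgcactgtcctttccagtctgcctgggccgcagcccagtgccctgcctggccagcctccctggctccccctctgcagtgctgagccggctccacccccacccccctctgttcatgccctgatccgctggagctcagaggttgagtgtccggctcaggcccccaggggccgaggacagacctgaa

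The Kcnj13 promoter held 1 TATAAA and 2 CCAAT, 1 of them on the opposite strand, and the Kcnh6 promoter held 2 GGGCGG and neither of the others, and the Kcnj14 promoter held none of these motifs. TATAAA was present in 14.2% of all 33469 promoters in the table and in 2 of the 67 entries of potassium channel genes (2.99%). CCAAT was present in 37.5% of all and in 28.4% of the 67, and GGGCGG in 33.1% of all and in 50.7% of the 67. The GC content was 46.3% for Kcnj13, 67.7% for Kcnh6 and 60.7% for Kcnj14, with a median of 51.7% over all promoters. The letters TAATCC, bound by Otx2 and Crx, were in none of these windows, in 7.17% of all promoters and in 3 of the 67 (4.48%). These matches describe the sequence and do not mark a site in use.

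A further set of genes varied between libraries of the same group, with the same libraries at the ends for several of them. Kcnf1, a silent subunit, had 749.1, 155.5, 190.5, 181.1 and 528.1 normalized counts in ET replicates 1 to 5. In PF it had from 144.3 to 645.6 with a median of 389.6, and in AD from 195.6 to 615.4 with a median of 437.0. The range within each group spanned more than the difference between the group means of 412.2, 431.6 and 443.7.

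Kcns1, another silent subunit, had 164.8, 39.6, 35.2, 37.8 and 77.3 normalized counts in ET, 28.9 to 90.9 in PF with a median of 45.3, and 45.8 to 127.0 in AD with a median of 66.5. Kcnk3 had 238.4, 92.9, 78.7, 81.6 and 148.8 in ET, and its lowest value of all libraries, 72.3, was in PF replicate 3. ET replicate 1 was the highest library for Kcnf1, Kcns1, Kcnk3 and Kcnh5. The libraries lowest in Kcnf1 were PF replicate 3 and ET replicates 2, 4 and 3.

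Kcnq3, Kcnh8 and Kcna3 had their lowest value of all libraries in ET replicate 1, where Kcnf1 was highest. Kcnq3 had 524.5, 1116.1, 2354.3, 1366.1 and 1286.7 normalized counts in ET, 1065.5 to 2159.1 in PF with a median of 1336.0, and 905.5 to 1450.9 in AD with a median of 1364.3. Kcnh8, of an ELK channel, had 7.73, 26.6, 39.5, 29.8 and 17.5 in ET, 23.0 to 54.5 in PF and 20.2 to 28.8 in AD. Kcna3 had 21.5, 37.1, 67.2, 40.6 and 46.6 in ET. Kcnj6 and Kcnma1 were also lowest in ET replicate 1, at 2213.5 and 525.9, and highest in ET replicate 3, at 5392.8 and 1403.1.

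Among the 12 markers of hippocampal neurons, 7 (Prox1, Zbtb20, Dsp, Camk2a, Bok, Nptx1 and Grik4) had their lowest value of all libraries in ET replicate 1, and the other 5 did not. Prox1, a transcription factor of dentate granule cells, had 110.3, 474.5, 679.5, 508.2 and 420.4 normalized counts in ET, and so was lowest where Kcnf1 was highest. It had 656.6 in PF replicate 3, 303.2 to 462.7 in the other PF libraries and 245.5 to 497.9 in AD, where AD replicate 6 was lowest. Zbtb20 had 1595.5 in ET replicate 1 and 2650.7 to 6387.7 in the others. Slc17a7, of the vesicular glutamate transporter of excitatory neurons, had 22100.6 in ET replicate 1, above ET replicates 2 and 5 (20777.1 and 21488.9), and Wfs1 had its lowest value, 2440.3, in PF animal 11f6. The part of the proportions of hippocampal subfields in these values was not tested.

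By the rule that names the genes most like a variable member, the nearest to Kcnf1 over the 17 libraries were Cobl (Pearson r of log2(CPM + 1) of 0.97), Fam81a (0.96), LOC108353239 (0.96), Rprm (0.96) and Kcnip3 (0.96). For Kcnq3 they were Grin2a and Mrtfb (0.98 each), Ash1l and Setd7 (0.98 each) and Smcr8 (0.97). For Kcnk3 they were Rassf5 (0.98), Stmn1 (0.98), Igsf21 and Garnl3 (0.97 each) and Gls2 (0.97). These are descriptions over libraries that share a tissue and a depth range, chosen as the largest of many values.

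**Figure D4:**
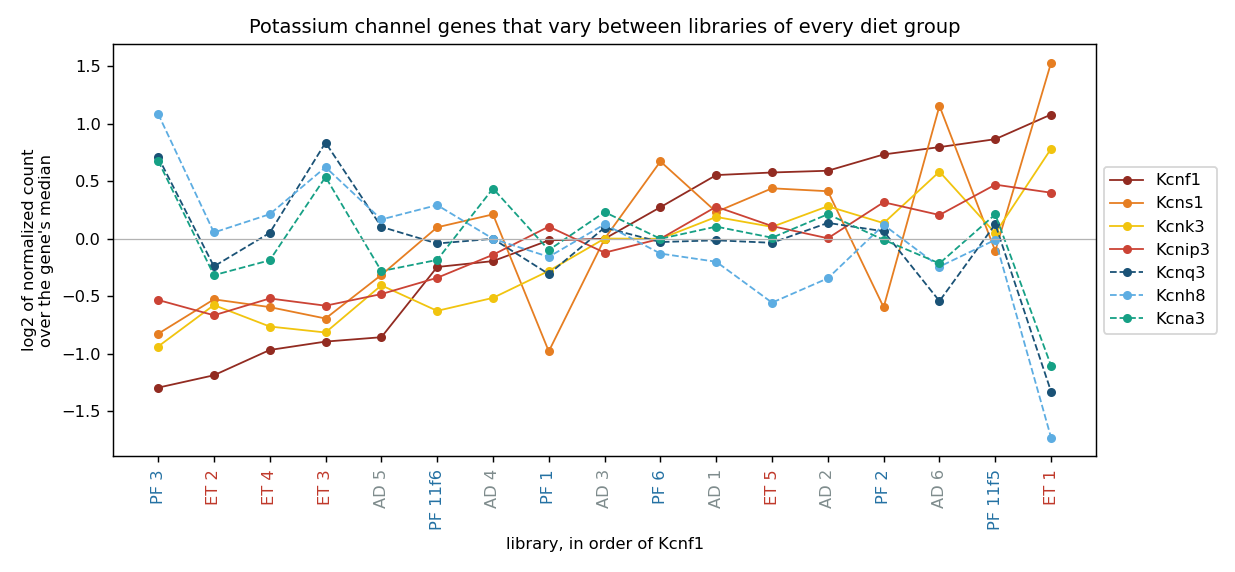
Log2 of the normalized count over the gene's own median for 7 potassium channel genes in the 17 libraries, placed in order of Kcnf1 and with names coloured by group (red ET, blue PF, grey AD). In ET replicate 1, at the right end, Kcnf1, Kcns1 and Kcnk3 (solid lines, with Kcnip3) have their highest and Kcnq3, Kcnh8 and Kcna3 (dashed lines) their lowest values, Kcns1 departs from the order of Kcnf1 in several libraries, and the 3 groups are mixed along the axis.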

How the data were processed

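RNA of 17 rat hippocampi (5 ET, 6 PF, 6 AD) was sequenced from stranded mRNA libraries. The authors trimmed reads with fastp, mapped them to mRatBN7.2 with Bowtie2 2.4.2 and counted fragments on exons with featureCounts 2.0.1 (mapping quality of at least 10, reads allowed to count for several features). The strand setting and annotation release are not given in the sources used here. The paper describes no difference in counting between the groups. Gdf1 and Cers1, which share their whole span, nevertheless had equal counts of 150.7 to 226.0 in PF libraries and 0 in ET and AD libraries. The authors deposited these fragment counts averaged over 3 technical replicates and not normalized, so that they need not be whole, and they were rounded here as estimated counts are. They were then filtered with filterByExpr, scaled by TMM and tested with glmQLFit and glmQLFTest of edgeR 4.0.16 (R 4.3.3), with Benjamini-Hochberg adjustment over all genes tested. The fits used the study's final 14 libraries, and the SE is the absolute log2 fold change divided by the square root of F. DESeq2 1.42.0, other scalings, sample sets and covariates were alternatives. Genes were called by the thresholds of the study (adjusted p of 0.01, log2 fold change beyond 1.5 in either direction) and by an adjusted p below 0.05. The code was tested on simulated data. The 40 pairs of replicates of a group differed beyond counting noise (chi-square per gene of at least 3.16). PF columns 11f5 and 11f6 carry animal names and no replicate number, and 0 columns of other samples were present. Named genes were those past a threshold, those with the largest and smallest mean in each class, the 10 most variable, a list of genes with known roles, and genes overlapping a called member. Other genes, such as Kcna6, Kcnk10, Kcnh2, Kcne5, Kcnj16, Kcnj2, Kcnab3, Kcnk6, Kcnh4, Kcnh5 and Kcnmb1, were named after their values were seen, and some genes that the rule names are not reported here. The members, marker lists and partner list were chosen with earlier results of these data known. Gene overlaps are from the RefSeq list of GRCr8, in which all 91 members matched and 43 overlap another gene.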

Additional observations from a re-analysis of the deposited data

Results flagged for a closer look

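Within the diet groups, 15 values of 20 potassium channel genes lay far from the rest of their group (the gap to the nearest library over the whole range exceeded Dixon's limit at the 95% level). Chance alone flags about 1 in 20 such sets, but the 60 sets examined share libraries and genes that vary together, and the 20 genes were chosen after their values were seen, so the number of flags was not compared with chance. In ET replicate 2, PF animal 11f6 and AD replicate 4, Kcnj13 had 865.3, 960.1 and 1056.7 normalized counts, Kcne2 had 608.5, 787.5 and 804.6, and Kcnq1 had 57.3, 61.5 and 56.6. These are the libraries left out of the fits, and their choroid plexus markers are given in the report. In AD replicate 6, Kcnh6 had 426.8, Kcnj14 had 460.9 and Kcns1 had 127.0, each the highest of its group, and Kcnq3 had 905.5, the lowest of its group. In PF replicate 3, Kcnq3 had 2159.1 and Kcnh8 had 54.5, the highest of their group. The test of the ET to PF difference between the sexes called 0 of 83 genes by edgeR and 0 by DESeq2, with 2 at an unadjusted p below 0.05 by edgeR.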

How the results depend on the processing

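Kcnk15 kept its direction and an adjusted p below 0.05 in all 16 alternatives of ET against PF (adjusted p from 2.4e-10 to 0.019) and in all 17 of PF against AD (1.4e-12 to 0.00032). With the replicate number as a block, its adjusted p of 0.019 missed the threshold of 0.01 in ET against PF, leaving 0 genes lower there. The block fits with PF also left out PF animal 11f5, which has no replicate number. Without that library and without the block, the adjusted p of Kcnk15 in ET against PF was 0.0004 by edgeR. The numbers were not taken as pairs, since same-numbered libraries of ET and PF deviated together with correlations of 0.02 and 0.64 and the other 2 comparisons had pairs below 0. At an unadjusted p below 0.05, the block gave 3 lower and 10 higher of 81 in ET against PF, beside 5.89% and 3.81% of all genes in that fit, and 20 lower and 6 higher of 80 in PF against AD, beside 7.98% and 9.87%. The block also gave 3 genes lower and 2 higher of 80 at an adjusted p below 0.05 in PF against AD, beside 1.04% and 3.44% of all genes. Counting only members that overlap no other gene, chosen after seeing the data, left 0 genes lower in ET against PF and 0 higher in PF against AD under both rules. This outcome was fixed in advance, since Kcnk15 was the only gene called in these fits and it overlaps Rims4. Of all genes that overlap none, 0.827% were lower in ET against PF at an adjusted p below 0.05 by edgeR. In PF against AD 1.36% were higher. In PF against AD at an adjusted p below 0.05, 1 gene was lower by DESeq2, beside 1.12% of all genes. With all 17 samples 2 were lower (Kcnn1, adjusted p = 0.025, and Kcnh2, adjusted p = 0.03, by edgeR), beside 1.24% of all genes. Leaving out each replicate in turn gave 0 to 2 lower (2 without AD replicate 3, 1 without AD replicate 5) in PF against AD, beside 0.43% to 1.9% of all genes. It gave 1 to 3 higher (3 without PF replicate 6, 2 without AD replicate 5 or 6), beside 3.71% to 5.4%. In ET against PF it gave 1 to 2 lower (2 without ET replicate 1), beside 3.12% to 3.55%. Of the medians and counts, 308 values in alternatives stayed within the limits set for them and 15 moved, and 288 of 301 values of named genes kept their direction and their side of the threshold, with 13 newly past it. Between the sexes and in ET against AD, 0 genes passed in every alternative. Depth limits the genes near 3 counts, Kcnk15 outside PF among them.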
